A study of Mus musculus with 12 samples.

Results

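RNA from 6 of the 12 samples of a mouse cutaneous lupus study was compared here, namely 3 samples taken from lesional skin at disease flare and 3 Th2 cultures of the kind that had been injected to start the disease. The members were chosen by label alone, as every flare sample and every Th2 culture, and each of the 547 endogenous genes of the NanoString mouse Immunology panel was examined in them. The Th2 cultures were started from purified CD4+ T cells of DO.11 donors, whose transgenic T cell receptor recognises ovalbumin. They had been stimulated by ova-pulsed splenocytes under Th2-skewing conditions and grown in IL-2. Per the study's methods, the rested cells were then stimulated again with fresh ova-pulsed splenocytes, without renewed skewing. They were harvested on day 10, when activation after this stimulus was at its peak. Of the cultures, 1 came from experiment 1 and a male and a female culture from experiment 2, and they are called cultures 1, 2 and 3 in that order. The flare samples came from mice 1 and 2 of experiment 1, with skin scores of 1 and 0.5, and from mouse 12 of experiment 2, with a score of 2, at about week 12 after injection. These recipients were sublethally irradiated Ii-TGO mice fed doxycycline, in which the invariant chain promoter drives the transactivator, and through it the ovalbumin fusion protein, in MHC class II-positive cells. They had developed lesions, been taken off doxycycline to heal, and been put back on it without a further injection of T cells. The recipients were TLR9-deficient or wild type, with no genotype on the labels of single mice, their ages are not given in the sources used here, and irradiated hosts keep skin and immune cells of their own. The skin samples are labelled as DO.11 T cells enriched from digested skin with CD3 beads, although the study's text also names beads against KJ1-26, the DO.11 receptor, and each is 1 mouse. All values below are counts scaled to 7 housekeeping genes, a sample's detection limit is the mean plus 2 SDs of its 8 negative-control probes, and values are listed in the order culture 1, 2, 3 and mouse 1, 2, 12.

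Th2 cells are helper T cells that make interleukin 4 (IL-4), IL-5 and IL-13 under the transcription factor GATA3, and they respond to IL-4 through the receptor chain encoded by Il4ra. A T cell of any kind is recognised by its antigen receptor complex, whose CD3 chains are encoded by Cd3d, Cd3e and Cd247, and by the kinase Lck that starts its signal. Lesional skin also holds macrophages, dendritic cells, fibroblasts and endothelial cells, which are known sources of complement proteins and of chemokines such as CCL8, a chemokine that recruits T cells and monocytes.

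The label of a T cell sample went against the flare values of the CD3 genes Cd3d and Cd3e. Cd3d read 4174, 3888 and 5157 in the cultures and 123, 100.4 and 61.1 at flare, and Cd3e read 1584, 1231 and 1370.1 and 23.2, 26.8 and 22.5. Every culture lay far above its limit, while all 3 flare samples lay at or below theirs for both genes, so that only bounds can be given, at least 36.8-fold lower for Cd3d and at least 11.6-fold lower for Cd3e. The unscaled flare counts of Cd3e were 3, 4 and 7, against 4130, 3871 and 3676 in the cultures. The 3 samples of first lesions, taken about week 4 and prepared the same way, also lay at or below the limit for Cd3e and Lck. The skin samples at flare are therefore called flare samples here and not T cells. Among other genes of T cells, Cd2 and Thy1, given below, stayed above the limit in all 3 flare samples. An absence of T cells is thus not shown. In such bulk RNA, fewer cells of a type and less RNA per cell cannot be told apart.

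The flare libraries were much smaller than the culture libraries. Their endogenous counts summed to between 25925 and 55349, against 422557 to 481131 in the cultures, and 217 to 295 genes lay above the limit, against 369 to 403. After scaling, the limit stood at 66.0 to 158.9 in the flare samples (mean 119.8) and at 5.42 to 8.41 in the cultures (mean 6.45), so low flare values are background and have no order. The 7 housekeeping genes did not keep their ratios to each other, and after scaling their log2 ratio of flare to culture ran from -0.86 for Gapdh to 1.68 for G6pdx.

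Of the 547 genes, 403 exceeded the limit in 3 or more samples and were tested. By edgeR's quasi-likelihood test 208 (51.6%) were higher and 87 (21.6%) lower at flare at an adjusted p under 0.05. The median gene tested stood at a log2 fold change of 1.03. Of the 208, 135 (33.5% of genes tested) were above the limit in all 3 flare samples, 50 in 1 or 2 of them and 23 in none. The direction of the last 23 cannot be read, because their flare values are background set against a lower background. Of the 87 lower genes, 21 were above the limit in every flare sample, 20 in 1 or 2, and 46 in none. These 46 are bounded, with a bound above 1 for 41, which leaves 82 lower genes (20.3%) with a fold or a bound. The groups did not overlap for 312 genes (77.4%), and single-gene exact permutation tests of 3 against 3 samples cannot go below p = 0.1. Scaling set the balance of the calls. With TMM factors, which assume that most genes do not change, 145 genes were higher and 155 lower around a median of -0.070, and with DESeq2's size factors 152 and 153 around a median of 0.020. Counts chosen after seeing the data were added for this reason: 126 (31.3%) genes were called higher and 86 (21.3%) lower under all 6 choices of scaling and background tried, and the 135 above are those that the flare limit leaves. A gene absent from the cultures entered the test only where the flare samples exceeded the limit, so the counts of higher genes in the lists below describe the panel and are no test of a list.

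**Figure D1:**
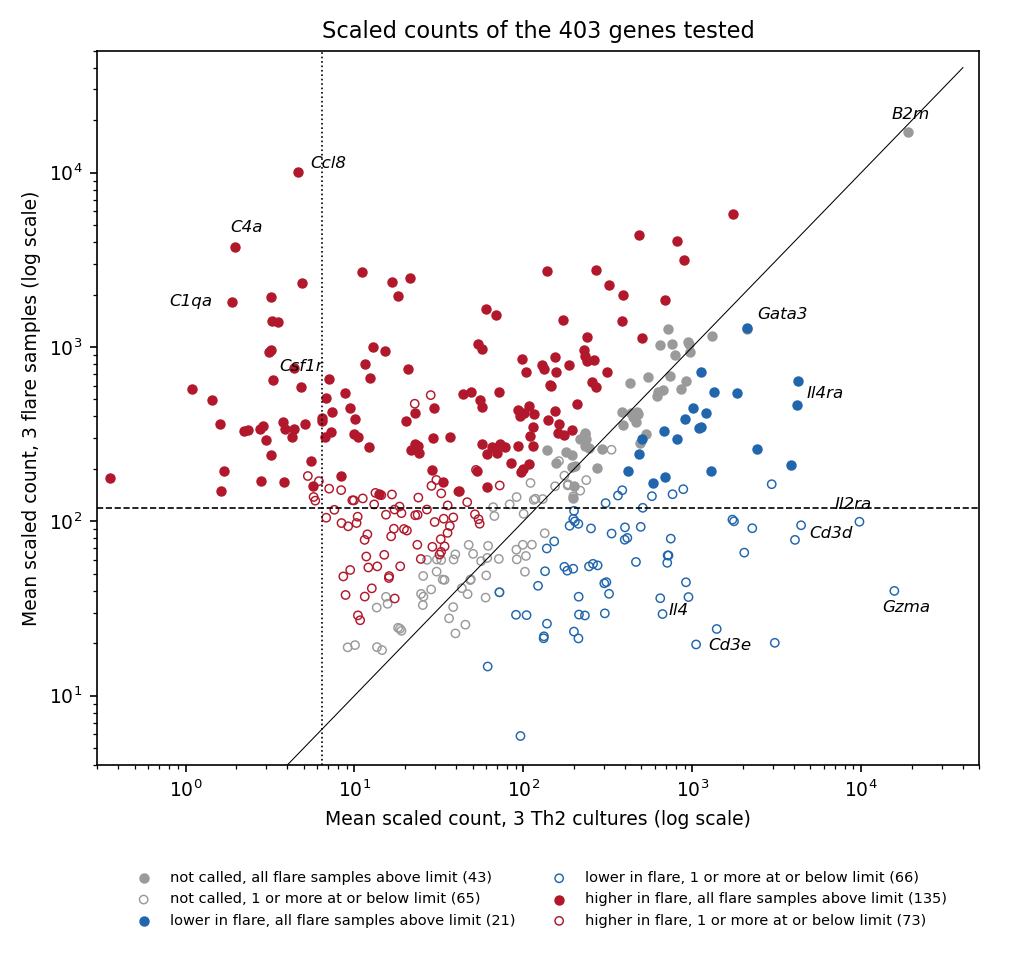
Mean scaled count of each of the 403 genes tested in the 3 flare samples (vertical, log scale) against the 3 Th2 cultures (horizontal, log scale). Filled points were above the limit in all 3 flare samples, open points in fewer, and colour gives the call by edgeR. The dashed line is the mean scaled limit at flare (119.8), the dotted line that of the cultures (6.45), and the diagonal marks equal values. The genes lower at flare are mostly open points under the dashed line, while Ccl8, C4a and C1qa lie to the left of the dotted line and far above the diagonal.

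Promoter sequence is shown for 3 genes that mark the ends of the comparison: Ccl8, the gene with the largest rise, Fcgr4, a macrophage Fc receptor that was at a count of 1 in every culture, and Cd3e, which was lost to the limit at flare. Each is the 250 bases before the RefSeq start on build GRCm38.p6, in the direction of transcription, at chr11:82114935-82115184 (plus strand) for Ccl8, chr1:171018676-171018925 (plus strand) for Fcgr4 and chr9:45009612-45009861 (minus strand) for Cd3e. Capitals mark matches, on either strand, to AGGAAG (the core bound by ETS factors, among them PU.1 of myeloid cells and ETS1 of lymphocytes), TATAAA (the usual form of TATA box) and a pair of TTTC separated by any 2 bases (the core of an interferon-stimulated response element, ISRE).
Ccl8: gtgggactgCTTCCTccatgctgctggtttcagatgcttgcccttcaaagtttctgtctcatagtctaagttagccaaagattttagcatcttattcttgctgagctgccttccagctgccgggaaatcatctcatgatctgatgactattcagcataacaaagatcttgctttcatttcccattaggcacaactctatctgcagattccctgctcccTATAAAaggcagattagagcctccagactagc
Fcgr4: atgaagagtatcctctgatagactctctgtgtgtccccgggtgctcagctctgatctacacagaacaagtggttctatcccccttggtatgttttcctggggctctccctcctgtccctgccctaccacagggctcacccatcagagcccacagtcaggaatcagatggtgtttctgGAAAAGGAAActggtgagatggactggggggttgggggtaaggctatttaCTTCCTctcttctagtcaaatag
Cd3e: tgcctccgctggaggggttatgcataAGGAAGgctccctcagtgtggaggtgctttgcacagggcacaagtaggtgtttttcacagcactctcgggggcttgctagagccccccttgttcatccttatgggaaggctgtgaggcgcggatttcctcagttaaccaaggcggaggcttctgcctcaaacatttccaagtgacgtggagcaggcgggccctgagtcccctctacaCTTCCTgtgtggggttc
Ccl8 held TATAAA from 32 bases and AGGAAG from 241 bases before the start, Fcgr4 held AGGAAG from 23 bases and the ISRE core from 73 bases before it, and Cd3e held AGGAAG from 17 and from 224 bases before it. No printed match overlapped another. Over all 32851 promoters of the table, 29.5% held AGGAAG, 12.4% TATAAA and 3.0% the ISRE core in the same 250 bases. Among the 135 genes higher with every flare sample above the limit, 97 had a promoter in the table, and 38.1%, 17.5% and 6.2% of these held the 3 motifs in that order. Among the 82 lower genes with a fold or a bound, 59 had one, with 40.7%, 8.5% and 5.1%. AGGAAG was thus about as common in the promoters of higher as of lower genes. A match is a description of letters and not a bound site.

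Genes of T cell identity and receptor signalling were mostly lower at flare. Over all genes tested, 21.6% were lower and 33.5% higher with every flare sample above its limit. Of 30 tested from a list of 32, 19 were lower, 2 were higher with every flare sample above its limit, and 9 were not called or were called from values at the limit, with a median log2 fold change of -1.56. Lck read 2512, 1710.5 and 1871 in the cultures and 77.2, 60.2 and 61.1 at flare, at least 16.9-fold lower. Thy1, a surface glycoprotein of T cells and also of fibroblasts, stayed above the limit in all 3 mice, at 239, 221 and 170.4 against 5276, 3079 and 3088, and fell by 4.20 on the log2 scale (SE 0.36, adjusted p = 4.14e-06). Cd2, an adhesion receptor of T and NK cells, read 1438, 1249 and 1195 in the cultures and 185, 241 and 154 at flare. The groups stood well apart, and Cd2 fell by 2.75 (SE 0.28, adjusted p = 1.62e-05). Ets1, a lymphocyte transcription factor, fell by 3.24 (SE 0.38) to 394, 221 and 170.4. Ptprc, the CD45 phosphatase of all leukocytes, fell less, by 1.28 (SE 0.33, adjusted p = 0.00632), from 1655, 1143 and 1218 to 548, 763 and 354. Cd4 was above the limit only in mouse 12 and Cd247, the zeta chain, in mice 1 and 12, and they fell by 2.35 and 2.10. The 2 genes of the list that rose with all flare samples above the limit were Lcp2, the SLP-76 adaptor, which myeloid cells also use, at 540.3, 475 and 476 against 62.5, 49.6 and 53.3 (log2 fold change 3.17, SE 0.25), and Prkcd, a broadly expressed kinase (log2 fold change 2.07). Among all genes tested, Gzma, a protease of cytotoxic granules, had the largest fall, by fitted value and by bound. It read 22528, 11748 and 12846 in the cultures and 30.9, 53.5 and 35.4 at flare, at least 131-fold lower, and the related Gzmb was at least 25.7-fold lower. None of the 3 flare samples exceeded the limit for either.

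**Figure D2:**
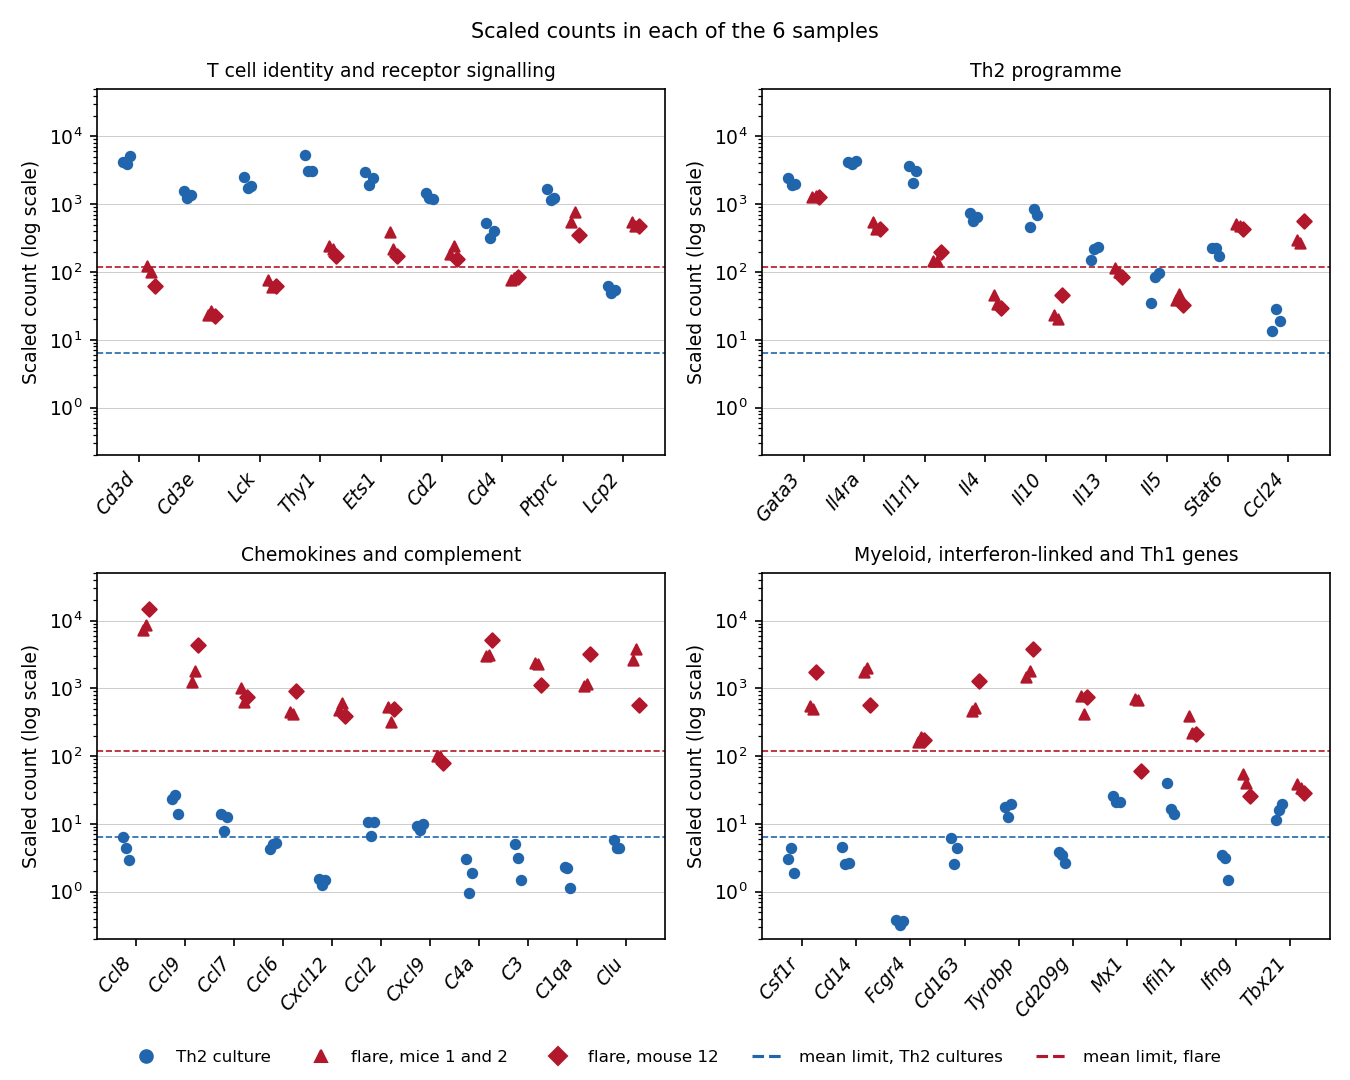
Scaled count (vertical, log scale) of selected genes in each sample, by group of genes, with circles for the Th2 cultures, triangles for flare mice 1 and 2 and diamonds for flare mouse 12. Dashed lines are the mean scaled limits of each group (119.8 at flare, 6.45 in the cultures). Cd3d, Cd3e, Lck, Il4, Ifng and Tbx21 do not exceed the own limit of any flare sample, while Gata3 and Il4ra exceed it in all 3.

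The Th2 programme was lower at flare in most of its measured genes. Of 14 tested from a list of 17, 9 were lower and 2 higher with every flare sample above its limit. These shares were 21.6% and 33.5% over all genes tested. The median log2 fold change of the list was -1.40. Il4ra, the IL-4 receptor chain, read 4157, 3881 and 4382 in the cultures and 540.3, 428 and 434 at flare. All 3 mice were above the limit and close to each other, and Il4ra fell by 3.15 on the log2 scale (SE 0.27, adjusted p = 4.42e-06), 8.88-fold. Il4 itself read 741, 559.9 and 638 in the cultures and 46.3, 33.5 and 28.9 at flare, at or below the limit in all 3 mice and at least 5.39-fold lower. Il1rl1, the gene of ST2 that binds IL-33, fell by 4.16 (SE 0.34), from 3649, 2072 and 3135 to 147, 147 and 196, with mouse 2 under its limit. Il10, a cytokine that restrains inflammation, was at least 5.56-fold lower, and the chemokine receptor gene Ccr4 at least 1.66-fold lower. Gata3 read 2412, 1934 and 1954 in the cultures and 1266, 1331 and 1276 at flare. These flare values were almost equal among themselves and lay under every culture, a fall of 0.70 (SE 0.24, adjusted p = 0.0258), 1.63-fold. Cd3d, Cd3e and Lck were at or below the limit in the same flare samples. Which cells carried the Gata3 and Il4ra RNA at flare was not tested. The call for Gata3 was lost without culture 2, culture 3, mouse 1 or mouse 2 and with all 12 samples in 1 fit, where the fall ranged from 0.69 to 0.76, and with TMM factors the fall was 1.79. Il13, at 116, 100.4 and 83.6 against 149.9, 219 and 236, fell by 1.04 (adjusted p = 0.0105) with mice 1 and 2 under the limit, and lost its call without culture 3 (-0.91) and in the 12-sample fit. Il5 was not called (log2 fold change -0.92, SE 0.49), with every flare sample at or below its limit, at 38.6, 46.8 and 32.2 against 34.5, 83.9 and 97.6. Nfil3, a transcription factor that acts downstream of IL-4, fell by 1.76 (SE 0.25), and Irf4, needed for Th2 differentiation, by 2.39 with 1 mouse above the limit. The 2 genes that rose were Ccl24, a chemokine of alternatively activated macrophages, at 293, 268 and 566 against 13.4, 28.3 and 19.0 (log2 fold change 4.23, SE 0.42), and Stat6, the transducer of IL-4 signals, at 509, 482 and 424 against 225, 229.5 and 169 (1.18, SE 0.25). The rise of Stat6 was at 0.07 with TMM factors and no longer called.

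Many genes of activated and regulatory T cells were also lower. In the list of activation and costimulation genes 9 of 20 tested were lower and 4 higher with every flare sample above its limit. In the Treg list 9 of 12 were lower. Over all genes tested 21.6% were lower and 33.5% higher in that way. No flare sample exceeded its limit for 8 of the 9 lower activation genes and for 7 of the 9 lower Treg genes. The lists share Il2ra, Ctla4, Tnfrsf4 and Tigit, so their counts are not separate results. Il2ra, the high-affinity IL-2 receptor chain, read 7479.7, 11122 and 10687 in the cultures and 100.3, 134 and 64.3 at flare, with no flare sample above the limit, at least 81.5-fold lower. The costimulatory receptor gene Icos was at least 33.8-fold lower, Tnfrsf8 (CD30) at least 8.79-fold, Tnfrsf4 (OX40) at least 7.92-fold and Ctla4, an inhibitory receptor, at least 6.22-fold. Foxp3 was at or below the limit in all 6 samples and was not tested. Tgfb1 was above the limit throughout and fell by 1.45 (SE 0.25), from 971, 711 and 751 to 301, 301 and 286. The higher genes were Nfkbia, an inhibitor of NF-kappaB that NF-kappaB induces, at 1860.1, 2014 and 675 against 52.9, 71.9 and 82.4 (log2 fold change 4.45, SE 0.46), Cd24a (2.48), Cd83 (2.06, and 0.87 and not called with TMM factors) and Cd44 (2.04), all of which cells other than T cells express.

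Receptors for lymphocyte growth cytokines split by gene. Of 21 tested, 10 were lower and 4 higher with every flare sample above its limit, against 21.6% and 33.5% of all genes tested. The shared gamma chain Il2rg, with mouse 2 under its limit, fell by 2.42 (SE 0.28), Il7r by 1.82 (SE 0.30) and Il2rb by 1.73 (SE 0.39), and Il27ra was at least 5.93-fold lower. Il13ra1, which pairs with the IL-4 receptor chain mainly on cells other than T cells, went the other way. It read 5.37, 6.99 and 8.94 in the cultures and 888, 676 and 412 at flare (log2 fold change 6.51, SE 0.42, adjusted p = 8.71e-07), with culture 1 under its limit, and the groups did not overlap. Il6st and Il6ra, the IL-6 receptor chains, rose by 3.49 (SE 0.38) and 3.00 (SE 0.27). Jak2, Stat3 and Stat5b were not called, with log2 fold changes of -0.17 (SE 0.28), 0.10 (SE 0.36) and -0.21 (SE 0.24).

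Of the 21 genes of the Th1 programme, 11 were at or below the limit in all 3 flare samples, as were 235 of the 547 genes of the panel. Of 20 tested, 3 were higher with every flare sample above its limit and 2 lower, against 33.5% and 21.6% of all genes tested. The median of the list was 0.86 and turned to -0.23 with TMM factors. Ifng, the defining Th1 cytokine, read 3.45, 3.18 and 1.49 in the cultures and 54.0, 40.1 and 25.7 at flare, with unscaled flare counts of 7, 6 and 8, and no sample of either group exceeded its limit. No fold is given for it. The same held for Il28a, a type III interferon, at 3.07, 0.954 and 0.373 and 61.7, 114 and 35.4, and for Ifnb1 and Ifna2. For Ifna1 mouse 1 alone was above its limit, at a count of 19. Tbx21, which encodes T-bet, was above the limit in the cultures at 11.5, 15.9 and 19.8 and at or below it in every flare sample at 38.6, 33.5 and 28.9 (log2 fold change 1.06, SE 0.44, adjusted p = 0.0511), and its sign turned with TMM factors. Il12rb1, a chain of the IL-12 receptor, was at least 2.52-fold lower. Tnf rose, from 14.6, 9.22 and 12.7 to 417, 268 and 113 (log2 fold change 4.40, SE 0.49), as did Ccl3, a chemokine of macrophages and activated lymphocytes, to 232, 261 and 344 (3.61, SE 0.31). Ifngr2, a chain of the interferon-gamma receptor, was higher by 0.97 (SE 0.24) and at -0.14, not called, with TMM factors.

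Type I interferon-stimulated genes were called in shares near those of all genes tested. Of 10 tested, 3 were higher with every flare sample above its limit, 2 lower and 5 neither. Over all genes tested 33.5% were higher in that way and 21.6% lower. The median log2 fold change of the 10 was 0.99, near the 1.03 of all genes, and -0.03 with TMM factors. Ifih1, the RNA sensor MDA5, read 40.3, 16.9 and 13.8 in the cultures and 386, 221 and 209 at flare and rose by 3.50 (SE 0.48, adjusted p = 0.00011). Mx1, an antiviral GTPase, read 25.7, 21.3 and 21.2 and 695, 662 and 61.1. Mice 1 and 2 stood far above the cultures and mouse 12 lay under its limit, and the fold change of 4.34 (SE 0.74) was not called after background subtraction. Bst2 (tetherin) and Ifitm1 were higher by 1.21 and 1.64, and at 0.16 and 0.69, not called, with TMM factors, and Ifitm1 was not called without culture 3 (1.41) or mouse 12 (1.29). Stat2, a transducer of type I interferon signals, was called lower, with every mouse at or below its limit, and the count of 2 lower genes was 1 without culture 1, mouse 2 or mouse 12. Ddx58 and Ifi35 were at 0.02 (SE 0.47) and 0.03 (SE 0.43). Among 13 tested interferon-gamma-inducible genes 5 were called higher, with 1 or more flare samples at or below the limit for each. None was higher with every flare sample above its limit, and 1 was without culture 1 or mouse 12. With TMM factors 2 were higher and 5 lower. Irf1, Psmb9, Tap1 and Tapbp were above the limit in every flare sample and were not called, with Irf1 at 1544, 1331 and 913. Cxcl9, a chemokine induced by interferon-gamma, read 100.3, 100.4 and 80.4 at flare with only mouse 12 above its limit, and Irf5 read 84.9, 134 and 215, again with mouse 12 alone above. Socs1, an inhibitor of cytokine signalling, fell by 4.12 (SE 0.29), from 1783, 1755 and 1758 to 77.2, 114 and 109, where mouse 12 alone was above its limit.

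Most of the chemokine genes tested were higher. On the whole list, 13 were at or below the limit in every culture, so any of these that were tested entered through their flare values. Another 11, in part the same genes, were at or below it in every flare sample. Of 27 on the panel 16 were tested, 11 were higher with every flare sample above its limit and none was lower, and the median log2 fold change was 5.02. Ccl8 read 6.52, 4.45 and 2.98 in the cultures, under the limit in all 3, and 7209, 8497 and 14590.4 at flare. Its log2 fold change was 11.06 (SE 0.56, adjusted p = 5.41e-07), at least 1565-fold against the limit of the cultures, and it took 3.60%, 4.34% and 8.20% of all endogenous counts in mice 1, 2 and 12. Ccl9 and Ccl6, ligands of CCR1, rose to 1235, 1827 and 4357 (log2 fold change 6.86, SE 0.60) and 448, 415 and 907 (at least 91.4-fold, with every culture under its limit). The monocyte attractants Ccl7 and Ccl2 read 1027, 636 and 743 and 533, 321 and 489 at flare, with log2 fold changes of 6.10 (SE 0.37) and 5.57 (SE 0.36). Cxcl12, a chemokine of stromal cells, was at unscaled counts of 4 in each culture and read 479, 616 and 389 at flare, at least 76.6-fold higher. The neutrophil attractant Cxcl1 was at least 52.6-fold higher and Cx3cl1, a membrane-bound chemokine, at least 51.9-fold higher. Ccl5 and Ccl22 were not called, with all flare samples at or below the limit.

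Chemokine receptor genes were mainly lower or at the limit. Of 11 tested from a list of 20, 5 were lower and 1 was higher with every flare sample above its limit. These shares were 21.6% and 33.5% over all genes tested. Cxcr6, a receptor of T cells in peripheral tissues, read 3084, 1733 and 1979 in the cultures and 123, 66.9 and 83.6 at flare, with only mouse 12 above its limit, and fell by 4.65 (SE 0.38, adjusted p = 3.49e-06). Ccr2 and Cxcr4, receptors of the ligands Ccl2 and Cxcl12 above, fell by 2.49 (SE 0.47, with mouse 12 alone above its limit) and 1.10 (SE 0.29). Ccr8, a receptor for CCL8 in the mouse, did not exceed the limit in any flare sample or in culture 3. Cxcr3, a receptor of Th1 cells, read 67.1, 30.2 and 45.1 and 69.5, 66.9 and 83.6 (log2 fold change 0.65, SE 0.38, not called), and its sign turned with TMM factors. The higher gene was Ccrl2, a receptor-like protein of myeloid and endothelial cells, at 278, 462 and 135 and at least 45.2-fold higher. Among 13 tested homing and adhesion genes 7 were lower, with Itgal (LFA-1 alpha chain) at least 7.65-fold lower and Itgb2 lower by 1.17 on the log2 scale. Another 4 rose, and Itgb1 and Itga6, integrins of many adherent cells, were at 1636, 1425 and 1241 (log2 fold change 3.06, SE 0.27) and 980.2, 1010.3 and 389 (2.61, SE 0.40).

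Most of the complement genes tested were also higher. On the whole list, 17 were at or below the limit in every culture and 10 in every flare sample. Any of these 17 that were tested entered through their flare values, which fixed their direction. Of 29 on the panel 17 were tested, 13 were higher with every flare sample above its limit and none was lower, with a median of 5.85, and 15 were higher under all 6 choices of scaling and background. C4a had the largest rise after Ccl8. It read 3.07, 0.954 and 1.86 in the cultures and 3002, 3071 and 5228 at flare, at least 584-fold higher, although its probe may also read the near-identical C4b. C1qa and C1qb, chains of the C1q recognition molecule that macrophages make, read 1065, 1171 and 3209 and 934, 1151 and 2071 at flare, at least 281-fold and 215-fold higher. C3, the central component, read 4.98, 3.18 and 1.49, under the limit in all 3 cultures, and 2369.5, 2268 and 1135 at flare, at least 298-fold higher (adjusted p = 8.43e-07). The proteases C1ra, above the limit in 2 of the 3 cultures, and C1s rose by 5.85 (SE 0.34) and 5.26 (SE 0.32), Cfb of the alternative pathway was at least 30.2-fold higher, and Cfp (properdin) rose by 3.92 (SE 0.30). Inhibitors were higher as well. Clu (clusterin) read 2586, 3820.3 and 559 and was at least 359.8-fold higher, Serping1 (the C1 inhibitor) read 687, 408 and 431 and Cd55 139, 181 and 113. C1qbp, a mitochondrial protein despite its name, was at 0.14 (SE 0.26).

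The tested markers of monocytes and macrophages were higher as well, while lists of other leukocytes were mixed. All 17 tested genes of a monocyte and macrophage list of 26 were higher, 14 of them with every flare sample above its limit, with a median log2 fold change of 5.94. Of the 26, 16 were at or below the limit in every culture and 7 in every flare sample. Any of these 16 that were tested entered through their flare values, which fixed their direction. The summed scaled count of the 26 was 355 to 374 in the cultures and 12064 to 18892 at flare. Csf1r, the receptor for the growth factor of macrophages, read 3.07, 4.45 and 1.86 and 556, 502 and 1759, at least 145-fold higher. Cd14, a coreceptor for endotoxin, was at least 219-fold higher, the scavenger receptor Cd163 at least 118-fold and Fcgr4, at 162, 194 and 174, at least 27.4-fold. The adaptor gene Tyrobp rose from 17.6, 12.7 and 19.4 to 1482, 1813 and 3791 (log2 fold change 7.16, SE 0.50). Fcgr1 and Tlr2 were among the 9 not tested, with Fcgr1 at or below the limit in all 6 samples. Trem2, a lipid receptor of macrophages, was at least 56.1-fold higher, and App, the amyloid precursor protein of many cell types, had a log2 fold change of 7.91 (SE 0.34). Of 9 tested dendritic cell genes 3 were higher with every flare sample above its limit, close to the 33.5% of all genes, among them Cd209g at 779.6, 415 and 746 and at least 100.2-fold higher. Of 3 tested neutrophil genes 1 was, S100a8, at 324, 1967 and 829.5 against 33.7, 17.8 and 109. Of 11 tested B cell genes 3 were lower and 1 was higher, Blnk, an adaptor that macrophages also express, by 2.00 (not called with TMM factors, 0.88, where 7 were lower and none higher). Of 3 tested NK cell genes 1 was lower and none was higher with every flare sample above its limit. Fcer1a of mast cells and basophils was above the limit only in mouse 1, at 147, 107 and 61.1. The share of each RNA that came from such cells was not tested.

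Genes of antigen presentation, matrix and stroma were also higher in part. Of 10 MHC class II genes 6 were higher with every flare sample above its limit and 1 was lower, and the median log2 fold change was 1.84 (3 higher and 2 lower with TMM factors). H2-Eb1 read 119, 387 and 300.4 and 3226, 1331 and 3787 (log2 fold change 3.37, SE 0.53), and Ctss, the protease that trims the invariant chain, rose by 2.81 (SE 0.37). Cd74, the invariant chain itself, whose promoter drives the transactivator in these hosts, read 806, 2278 and 2149 and 6684, 4469 and 6151 (log2 fold change 1.73, SE 0.41), and with TMM factors it was at 0.59. H2-DMb2 was at least 2.53-fold lower. Of 11 tested MHC class I genes 1 was higher and none lower, but with TMM factors none was higher and 8 were lower. B2m, the light chain of class I, read 24266, 15793 and 16861 and 18825, 20707 and 11857 (log2 fold change -0.15, SE 0.33). That count of 1 was 2 without mouse 12, and 1 gene was called lower without culture 1. Of 16 tested genes of the TGF-beta pathway and matrix, 14 were higher, all with every flare sample above its limit. Fn1 (fibronectin) read 2.30, 7.95 and 2.98 and 363, 174 and 473 (log2 fold change 6.21, SE 0.57, with culture 2 alone above its limit), Tgfbi, a matrix protein, read 579, 642 and 768 (5.75, SE 0.32), and Cd9, a tetraspanin, 2045, 2415 and 1408 (6.75, SE 0.36). Among 6 tested markers of stromal, endothelial and epithelial cells 5 were higher, Cd34 at least 52.4-fold, and none lower. The other tested gene, Pecam1 of endothelial cells, was not called. With TMM factors, DESeq2's size factors, total counts or 14 housekeeping genes 5 were higher and 1 lower. In addition, 1 was lower without mouse 1. The summed count of the 12 listed was 692 to 870 in the cultures and 4498 to 7634 at flare. Much of the flare sum was the listed gene Cd164, which alone read 5164, 5587 and 2350. Of the 12, 6 were at or below the limit in every flare sample. The part of such cells in the rises was not tested.

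**Figure D3:**
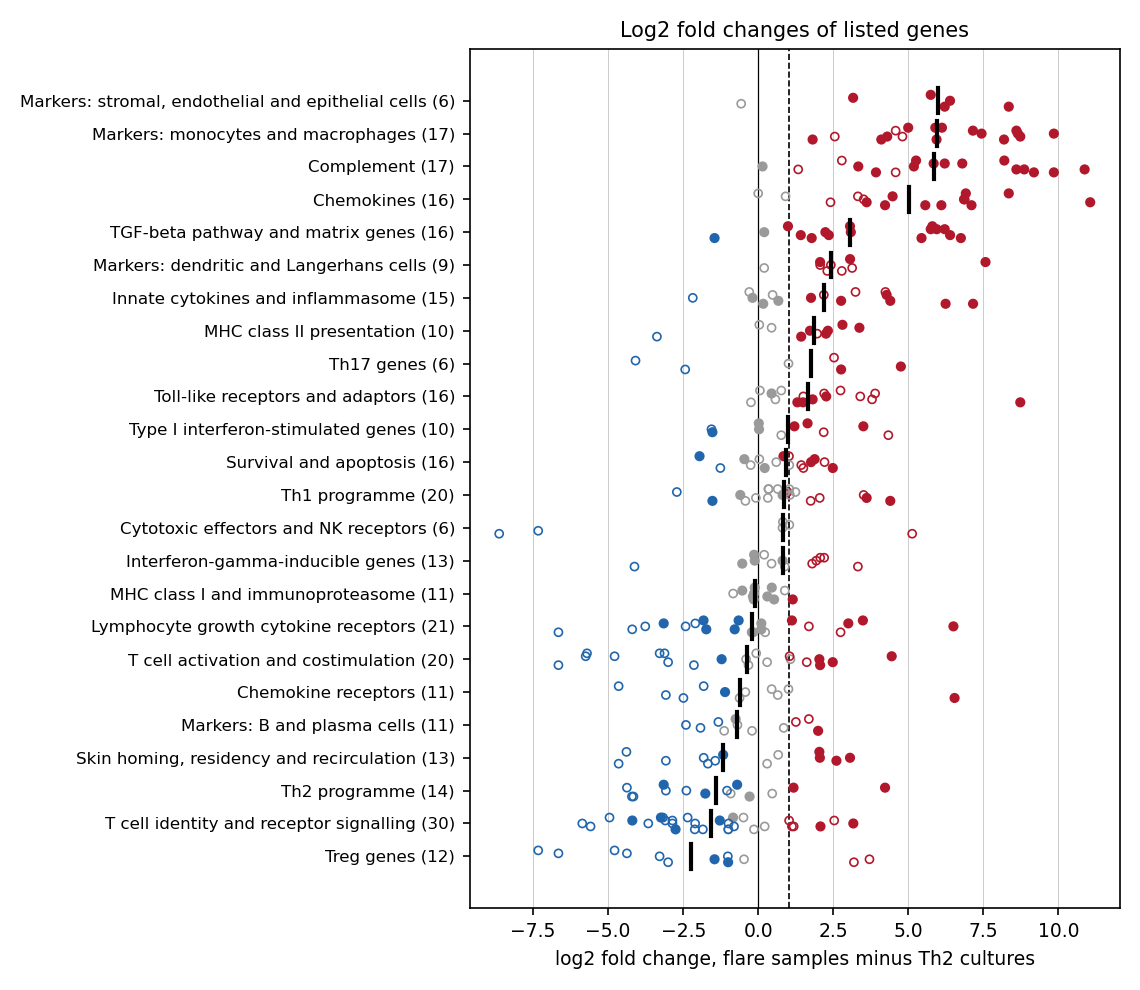
Log2 fold change (flare minus Th2 cultures, horizontal) of every tested member of the gene lists with 6 or more tested genes, with the number tested in brackets. Red points were called higher, blue lower and grey neither, filled points were above the limit in all 3 flare samples, black bars are list medians, and the dashed line is the median of all genes tested (1.03). The medians run from -2.23 for Treg genes and -1.56 for T cell identity to 5.94 for monocytes and macrophages and 5.98 for stromal, endothelial and epithelial cells. Members at or below the limit in every culture were tested only where their flare values exceeded it.

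Inflammatory cytokine genes and innate sensors had shares of higher genes near the 33.5% of all genes tested. Of 15 tested cytokine and inflammasome genes 6 were higher with every flare sample above its limit and 1 was lower (4 lower with TMM factors). Il1b, the gene for a pyrogenic cytokine of myeloid cells, read 1.92, 2.86 and 1.86 in the cultures and 162, 455 and 369.7 at flare, at least 51.0-fold higher. Il33, the ligand of the ST2 receptor, read 193, 187 and 338 and was at least 37.1-fold higher, in the same samples in which Il1rl1 was lower. Tnfaip6, a hyaluronan-binding protein that inflammatory cytokines induce, was at unscaled counts of 4, 2 and 3 in the cultures, under the limit in each, and read 942, 575 and 212 at flare, at least 89.3-fold higher. Of 16 tested Toll-like receptor genes 5 were higher with every flare sample above its limit and none was lower (3 lower with TMM factors), Tlr4 by 1.81 (SE 0.35) and Irak2 by 2.27 (SE 0.34). Tlr9, the receptor that TLR9-deficient hosts lack, was at or below the limit in all 3 flare samples. Among 16 tested survival genes 4 were higher with every flare sample above its limit and 2 were lower, with a median of 0.93. With TMM factors 3 were higher and 6 lower (median -0.18), and after background subtraction 3 and 8 (-0.90). Tnfaip3 (A20) and Cdkn1a (p21) rose by 2.49 (SE 0.34) and 1.88 (SE 0.31), Cdkn1a not being called with TMM factors (0.80). Bcl2 was at 0.22 (SE 0.29).

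Mouse 12 stood apart from the other flare samples. Over the 199 genes above the limit in all 3 flare samples, 8 lay more than 2-fold apart between mice 1 and 2, 60 between mice 1 and 12 and 46 between mice 2 and 12, and the correlation of log2 scaled counts across these genes was 0.93, 0.76 and 0.78 in that order, against 0.98 to 0.99 between cultures, of which 7 to 28 genes lay over 2-fold apart. The 199 genes were chosen at the flare limit, which sets no such floor in the cultures. The flare and culture correlations are therefore not comparable. Mouse 12 came from the other experiment and had the highest skin score. It also had the most endogenous counts, 55349 against 25925 and 29279, and the lowest scaled limit, 66.0 against 134.6 and 158.9. Among the scaling genes, unscaled Gapdh read 941, 1017 and 1127, and Eef1g 338, 388 and 1156. Mouse, experiment, score and library size thus cannot be told apart. In mouse 12, 29 genes lay under 1/2 of the value of both other mice and 9 over 2 times it. The 9 included some macrophage genes, with Csf1r at 556, 502 and 1759, C1qa at 1065, 1171 and 3209, Trem2 at 185, 268 and 633 and the neonatal Fc receptor Fcgrt at 571, 462 and 1823. The genes that were low in mouse 12 included Lif, a cytokine of the IL-6 family, at 1829, 1178 and 90.0, Muc1, an epithelial mucin, at 1304, 1532 and 154, Clu and Cd14 at 2586, 3820.3 and 559 and 1713, 1967 and 566, and Tgfb3 at 1081, 1238 and 225. Cd14 belongs to the macrophage list, whose members thus did not move one way in mouse 12, and Fcgr4 of that list read 162, 194 and 174. For Lif the cultures read 587, 669.6 and 666, so that it was above them in mice 1 and 2 and below them in mouse 12, and it was not called (log2 fold change 0.67, SE 0.75). A test of the group difference by experiment called 45 of 403 genes (11.2%), 28 of them above the limit in all flare samples. It rests on single samples, since experiment 1 has 1 culture and experiment 2 has 1 flare mouse, and its spread comes from the other pairs alone. As the choice of genes on the same 6 samples nearly fixes, all 135 higher genes had a log2 ratio above 0 and 81 of the 82 lower genes a ratio below 0 both within experiment 1 and within experiment 2. Within experiments Ccl8 stood at 10.23 and 11.94, Il4ra at -3.10 and -3.25, and Gata3 at -0.89 and -0.61.

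**Figure D4:**
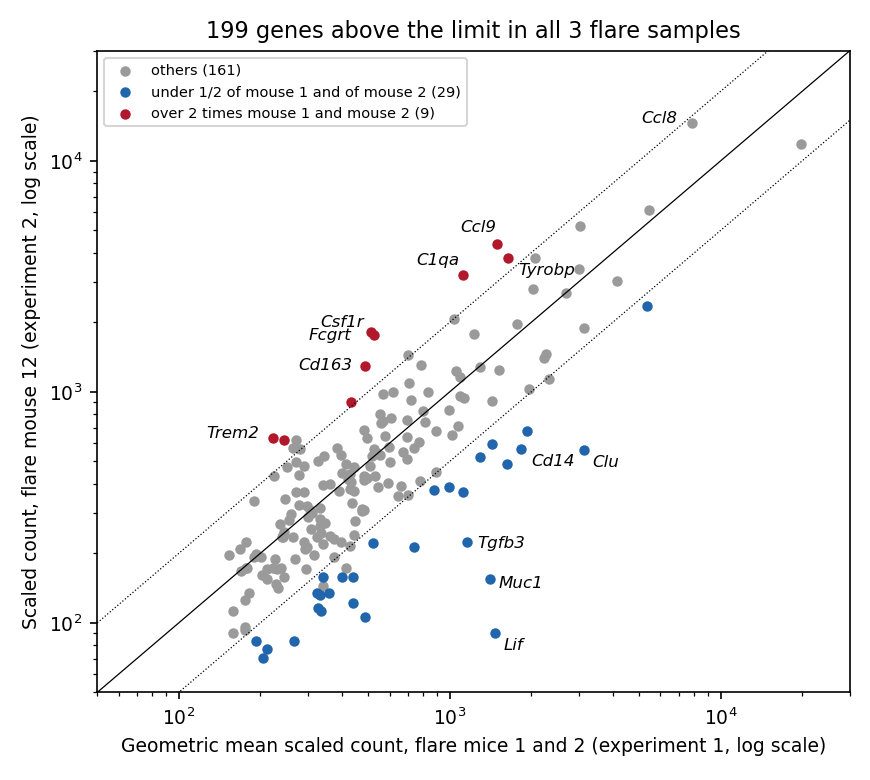
Scaled count in flare mouse 12 (vertical, log scale) against the geometric mean of flare mice 1 and 2 (horizontal, log scale) for the 199 genes above the limit in all 3 flare samples. The solid line marks equality and the dotted lines 2-fold differences. Red marks the 9 genes at over 2 times, and blue the 29 at under 1/2 of, the value in both other mice. Csf1r, C1qa and Trem2 lie above the upper dotted line and Lif, Muc1, Clu and Cd14 below the lower.

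Flare samples and first-lesion samples were not told apart by single genes. The first-lesion samples came from mice 1, 3 and 6 of experiment 1 at about week 4, with skin scores of 1, 3 and 3, and are listed in that order. Their labels do not say whether mouse 1 is the mouse 1 of the flare. Of 277 genes tested between them, 0 passed the threshold (lowest adjusted p = 0.378 by edgeR's quasi-likelihood test), 30 had an unadjusted p under 0.05, and 0 passed with TMM factors, without a filter, with experiment as a block or with any sample left out. Ccl8 read 18334, 4439.7 and 7031 at first lesions, against 7209, 8497 and 14590.4 at flare (log2 difference 0.03), and Gata3 read 740.3, 1423 and 1427. Il4ra read 319, 154 and 246 at first lesions and was 0.98 higher on the log2 scale at flare (adjusted p = 0.41), and C4a was 1.96 higher (adjusted p = 0.378), from 1473, 477 and 967. Both sets of skin samples thus lay on the same side of the cultures for Ccl8, C4a and Il4ra. A p that misses the threshold with 3 samples against 3 does not show that flare and first lesions were alike.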

How the data were processed

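RNA counts came from the NanoString nCounter mouse Immunology panel (547 endogenous genes, 14 housekeeping genes, 6 positive and 8 negative control probes). The deposited counts are whole numbers and not normalized, with a lowest value of 1, and per the study's methods the authors analysed them in Rosalind, whose own values were not used here. The counts of each sample were scaled to the geometric mean of 7 housekeeping genes, and the detection limit was the mean plus 2 SDs of the negative controls. Tests covered genes that exceeded it in 3 or more of 6 samples, with edgeR 4.0.16 (quasi-likelihood, housekeeping factors, Benjamini-Hochberg over 403 genes, threshold 0.05) in R 4.3.3, and limma 3.58.1 and DESeq2 1.42.0 served as alternatives. The scripts were tested on simulated data. The flare samples are separate mice, but nothing says that cultures 2 and 3 differ beyond the sex of their donors, so p-values measure the spread between these samples, which may be partly technical. "At least" folds set a group at or below its limit to that limit.

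Members and gene lists were chosen with earlier results of these data known. Named genes were the 15 largest rises and falls among called genes with groups that did not overlap, Ccl8, Il4, Il4ra, Gata3, the genes the study names, and up to 4 genes per list by size of change. Other names were picked with their values in view. The numbers of cultures and mice do not pair samples. The main fit had no block, and experiment served as a block only in alternative fits. The counts under all 6 settings, the counts restricted to genes above the limit in every flare sample, and the block for flare against first lesions were added after the data were seen. Promoters are RefSeq, GRCm38.p6. By accession, 537 genes matched RefSeq, and 13 of these have another symbol there, with the panel's symbols kept here. A few genes of the panel are not reported here by name.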

Additional observations from a re-analysis of the deposited data

Results flagged for a closer look

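The difference between flare and cultures passed a test for unequal size in the 2 experiments for 12 of the genes and list members followed here, by edgeR's quasi-likelihood test of the difference itself (experiment 2 minus experiment 1, 1 flare mouse in experiment 2 and 1 culture in experiment 1, 2 residual degrees of freedom, adjusted over 403 genes). Ccl8 rose more in experiment 2, by 1.67 on the log2 scale (adjusted p = 0.0474), as did C1qb by 2.02 (0.039) and Ifitm1 by 2.59 (0.00437), all above the limit in every flare sample. Clu, H2-Ea-ps and Tcf4, also above the limit in every flare sample, differed by -2.16 (0.0248), -2.02 (0.0454) and -1.33 (0.0454). Mx1 differed by -3.20 (0.000839), with mouse 12 under its limit. Ccr2 at 2.08 (0.0122), Ly96 at 2.46 (0.0185) and Psmb10 at 1.56 (0.0405) were above the limit in 1 flare sample each. Bcl6 at -2.16 (0.0437) and Cd79b at -3.03 (0.00656) were at or below it in all 3, so no size can be read for them. Mouse, experiment, skin score and library size cannot be told apart in these values.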

How the results depend on the processing

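Scaling and background moved the higher calls, the lower calls and the median, and the filter moved the higher calls and the median. Genes higher with every flare sample above its limit numbered 135 with the main scaling, 105 with TMM factors and 109 with DESeq2's size factors. Higher and lower calls were 145 and 155 with TMM factors (median -0.0696), 152 and 153 with DESeq2's size factors (0.0196), 199 and 102 with total counts (0.80), 184 and 107 with 14 housekeeping genes (0.64), and 146 and 146 after background subtraction (-0.21). Without a filter 348 were higher (median 2.00), and a minimum of 50 counts across a group left 128 (0.30). The Wald test of DESeq2 called 208 and 86, limma 210 and 86, the methods' t-test 148 and 74 after adjustment and 179 and 83 before it, and 12 samples in 1 fit 190 and 73. With experiment as a replicate block, 211 were higher and 95 lower (median 0.93). Leaving out 1 sample gave 201 to 231 higher, 81 to 86 lower and a median of 1.05 to 1.29. Directions turned for Cxcr3 (-0.38 with TMM factors, -0.29 with DESeq2's, -3.09 after background subtraction), Tbx21 (-0.032 with TMM factors, -3.52 after background subtraction) and Il5 (0.31 in experiment 1 alone). The cause was not tested. Of 874 values for 40 named genes, 806 kept direction and call, 34 moved, 18 lost and 10 gained the call and 6 turned. Scaling to Cd3 genes was not run, since Cd3d and Cd3e were at or below the limit at flare. Flare depth limits low genes: scaled values under 134.6, 158.9 and 66.0 in mice 1, 2 and 12 are background.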
